A study of Mus musculus with 18 samples.

Results

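The genes described here are 10 that encode parts of inflammasomes and of the pyroptotic machinery around them, taken from the 55359 Ensembl genes counted in each library. They are the sensors Nlrp3, Aim2, Nlrc4 and Mefv, the NLRP3-binding kinase gene Nek7, the adaptor Pycard, the proteases Casp1 and Casp4, the pore-forming effector Gsdmd and the cytokine Il18. They were chosen by symbol as a pathway, and each symbol matched 1 Ensembl gene in the tables of all 3 tissues. RNA was sequenced in bulk from spinal cord, from dorsal root ganglia (DRG, the clusters of sensory neuron cell bodies beside the cord) and from ankle joint of C57BL/6 mice of 10 weeks. The mice had been given 100 µl of either phosphate-buffered saline (PBS) or monosodium urate (MSU) crystals, the crystals of gout, in the right ankle, and were killed 8 h later. MSU mice were thus compared with PBS mice within each tissue, and the 6 groups held 3 libraries each, 18 in all. The sample labels call the controls untreated, whereas the treatment protocol gives them PBS, and they are treated as PBS-injected. The sample titles set WT against MSU, and no other allele, transgene or agent is given for either. The labels do not say that the libraries of a group came from separate animals, so the p-values measure the spread between these libraries, which may in part be technical.

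Inflammasomes are assemblies in the cytosol that form when a sensor protein meets a danger signal. NLRP3 responds to many disturbances, among them urate crystals, and needs the kinase NEK7 to assemble. AIM2 binds DNA, NLRC4 works with NAIP proteins on bacterial flagellin and secretion systems, and pyrin, the product of Mefv, responds to the inactivation of RhoA GTPases. The adaptor ASC, the product of Pycard, joins these sensors to caspase-1, which matures interleukin-1β and interleukin-18 and cleaves gasdermin D. The freed part of gasdermin D forms pores in the plasma membrane and the cell dies by pyroptosis. Mouse Casp4 encodes caspase-11, which binds bacterial lipopolysaccharide directly and also cleaves gasdermin D. These are proteins whose activity depends on assembly and cleavage, and the values below are transcript levels only.

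Total counts ran from 11632950 to 38812815 per library, and 3 counts in a library corresponded to 0.0773 to 0.258 CPM (counts scaled to a common library size). Marker transcripts matched the labelled tissues: 6 sensory neuron markers summed to 4902 CPM or more in every DRG library against 14.1 or less in every ankle library, and 7 spinal cord markers summed to 3400 CPM or more in every cord library. DRG MSU library 1 stood apart with 11080 CPM over 4 skeletal muscle markers, against 1308 and 1270 CPM in the other DRG MSU libraries and 21.6 to 223 CPM in the DRG controls. Ankle control 2 held 659 CPM over 8 neutrophil markers, against 216 and 236 CPM in the other ankle controls. Cord control 3 and cord MSU 3 held 4.35 and 8.43 CPM of Scn10a, a sodium channel gene of sensory neurons, against 0.355 CPM or less in the other cord libraries. Results that rest on these libraries are given with and without them. In bulk RNA, fewer cells of a type and less of a transcript per cell cannot be told apart.

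Promoter sequences of 9 of the 10 genes were found in RefSeq (build GRCm38.p6), as windows from 250 bases before to 50 bases after an annotated transcript start. Those of Casp4 and Mefv are shown because Casp4 was called higher in all 3 tissues and Mefv was the only member with no counts in a control group, that of Nlrp3 because it had the largest ankle change among the 10, and that of Pycard because it fell in the ankle. The windows are chr9:5308599-5308898 (+) for the upstream of the 2 Casp4 starts, chr16:3718075-3718374 (−) for Mefv, chr11:59541319-59541618 (+) for the upstream of the 2 Nlrp3 starts and chr7:127993818-127994117 (−) for Pycard, each written 5′ to 3′ on the strand of its gene. Capitals mark matches to a searched motif.
Casp4: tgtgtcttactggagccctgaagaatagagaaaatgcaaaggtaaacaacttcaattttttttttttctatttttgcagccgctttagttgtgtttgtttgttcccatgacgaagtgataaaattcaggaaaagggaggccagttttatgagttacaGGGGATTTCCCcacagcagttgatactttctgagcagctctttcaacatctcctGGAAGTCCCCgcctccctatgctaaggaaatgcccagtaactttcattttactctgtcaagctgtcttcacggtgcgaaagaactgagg
Mefv: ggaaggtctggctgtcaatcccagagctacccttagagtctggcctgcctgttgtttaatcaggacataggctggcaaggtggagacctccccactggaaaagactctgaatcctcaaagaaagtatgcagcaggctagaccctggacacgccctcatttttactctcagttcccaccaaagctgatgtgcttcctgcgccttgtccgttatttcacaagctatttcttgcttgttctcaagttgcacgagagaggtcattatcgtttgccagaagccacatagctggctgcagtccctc
Nlrp3: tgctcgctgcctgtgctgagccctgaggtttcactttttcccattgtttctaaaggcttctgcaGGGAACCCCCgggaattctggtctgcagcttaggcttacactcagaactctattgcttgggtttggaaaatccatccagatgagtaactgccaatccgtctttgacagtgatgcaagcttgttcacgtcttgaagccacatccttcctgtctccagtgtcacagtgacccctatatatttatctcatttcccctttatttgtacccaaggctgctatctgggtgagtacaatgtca
Pycard: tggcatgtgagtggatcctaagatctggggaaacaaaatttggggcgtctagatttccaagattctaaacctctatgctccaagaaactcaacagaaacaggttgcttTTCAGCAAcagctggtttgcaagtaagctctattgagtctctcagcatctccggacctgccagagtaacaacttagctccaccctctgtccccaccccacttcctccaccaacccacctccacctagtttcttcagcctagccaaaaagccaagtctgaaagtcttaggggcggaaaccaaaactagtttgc
The motifs searched on both strands were the NF-kB consensus, the interferon-stimulated response element (ISRE) consensus, the AP-1 site TGANTCA, the C/EBP site TTGCNNAA and the interferon-gamma activated site TTCNNNGAA. Of 32851 RefSeq mouse promoters of this length, 8.46% held the NF-kB consensus, 3.44% the response element, 7.81% the AP-1 site, 10.8% the C/EBP site and 8.3% the activated site. Casp4 held 3 NF-kB matches, a pair of which overlap in GGGGATTTCCC from 93 bases before the start, and the other, GGAAGTCCCC, lies from 39 bases before it. Nlrp3 held 1 NF-kB match, GGGAACCCCC, from 186 bases before its upstream start. Pycard held 1 C/EBP match, TTCAGCAA, from 142 bases before its start, and Mefv held no match to the 5 motifs. Among the other members with a window, Nlrc4 held 1 C/EBP match and Casp1, Aim2, Il18 and Nek7 held none. A match describes letters in the window and does not show that a factor binds there.

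In the MSU ankle, the sensor transcripts Nlrp3 and Mefv rose most among the 10 genes, 39.3-fold and 13.2-fold, and the caspase-11 transcript Casp4 rose 5.05-fold. Gsdmd and Nlrc4 rose 1.88-fold and 1.87-fold. Pycard, the adaptor, moved the other way and was 1.92-fold lower, Il18 was 1.33-fold lower, and Casp1, Aim2 and Nek7 did not pass the test. Thus 5 of the 10 genes were called higher and 2 lower by the quasi-likelihood test of edgeR with Benjamini-Hochberg adjustment over all genes, with a threshold of 0.05. Of the 17690 genes tested in the ankle, 21.6% were called higher and 21.7% lower, so calls in either direction were common there. The median log2 fold change was 0.65 over the 10 genes and -0.02 over all genes tested. The latter was -0.12 with upper quartile scaling and -0.13 in a fit of all 18 libraries.

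**Figure D1:**
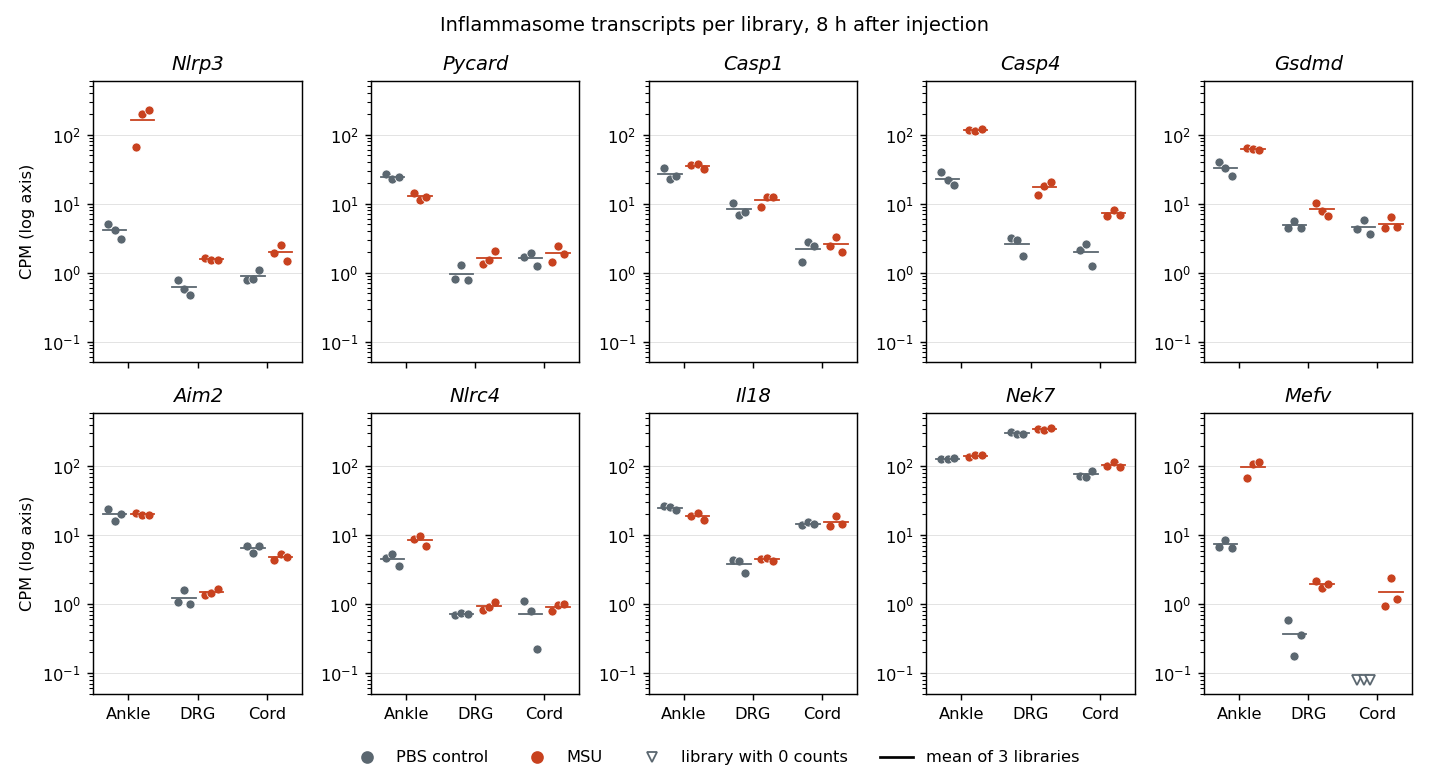
Level of each of the 10 transcripts in every library, in CPM on a log axis, for PBS controls (grey) and MSU (red) in the ankle, DRG and spinal cord. Points are libraries and bars are means of 3. Nlrp3 separated most widely in the ankle, from 3.09 to 5.06 CPM in the controls and from 65.8 to 231 CPM with MSU, and Mefv had 0 counts in all 3 cord controls (open triangles).

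Among the ankle sensors, Nlrp3 (ENSMUSG00000032691, chromosome 11) stood at 5.06, 4.12 and 3.09 CPM in controls 1 to 3 and at 65.8, 197 and 231 CPM in MSU libraries 1 to 3. The groups were far apart, and MSU library 1 was well below the other 2 MSU libraries. Its log2 fold change was 5.30 (SE 0.63, adjusted p = 0.00300). Mefv (ENSMUSG00000022534, chromosome 16), the pyrin gene, was at 6.86, 8.64 and 6.53 CPM in the controls and 68.1, 109 and 114 CPM with MSU, and again MSU library 1 was the lowest of its group without nearing the controls. Its log2 fold change was 3.72 (SE 0.23, adjusted p = 2.47e-05). Nlrc4 (ENSMUSG00000039193, chromosome 17) was lower in level, at 4.72, 5.34 and 3.58 CPM in the controls and 8.77, 9.88 and 7.05 CPM with MSU. These groups did not overlap, with a log2 fold change of 0.91 (SE 0.22, adjusted p = 0.00988). Aim2 (ENSMUSG00000037860, chromosome 1), the DNA sensor, gave 24.1, 15.9 and 20.1 CPM against 21.4, 19.5 and 19.6 CPM. The MSU values lay inside the control range, and the log2 fold change of 0.01 had a 95% interval of -0.31 to 0.33 (adjusted p = 0.973). Its sign was negative without ankle control 2 (-0.14), without ankle MSU 1 (-0.04), with upper quartile scaling, with no count filter and in the fit of all 18 libraries. Nek7 (ENSMUSG00000026393, chromosome 1) ran from 125 to 130.5 CPM in the controls and from 135 to 147 CPM with MSU, a small step without overlap that did not pass (log2 fold change 0.16, adjusted p = 0.172).

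The adaptor and the proteases parted in the ankle. Pycard (ENSMUSG00000030793, chromosome 7) was at 26.9, 22.7 and 24.3 CPM in the controls and 14.4, 11.3 and 12.7 CPM with MSU. Every MSU library was below every control, with a log2 fold change of -0.94 (SE 0.14, adjusted p = 0.000805). Casp1 (ENSMUSG00000025888, chromosome 9) was at 32.7, 22.7 and 25.3 CPM in the controls and 36.0, 38.2 and 31.7 CPM with MSU, groups that touched at control 1. Its log2 fold change of 0.39 (SE 0.15) did not pass (adjusted p = 0.0638), and it passed without ankle control 1 (log2 fold change 0.56, adjusted p = 0.0134, with a range of 0.0134 to 0.293 over the alternatives). Casp4 (ENSMUSG00000033538, chromosome 9) was at 28.4, 21.9 and 18.7 CPM in the controls and a narrow 115, 112 and 122 CPM with MSU. Its log2 fold change was 2.34 (SE 0.15, adjusted p = 1.36e-05), with no overlap.

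Downstream of the caspases, Gsdmd (ENSMUSG00000022575, chromosome 15) rose from 40.8, 32.6 and 25.1 CPM to 64.2, 62.1 and 59.2 CPM. The MSU libraries were close together and all above the spread-out controls, with a log2 fold change of 0.91 (SE 0.16, adjusted p = 0.00201). Il18 (ENSMUSG00000039217, chromosome 9), a cytokine precursor gene that keratinocytes and other epithelial cells also express, fell from 26.4, 25.8 and 22.9 CPM to 19.3, 20.7 and 16.5 CPM. The groups did not overlap, but the gap was small (log2 fold change -0.41, SE 0.13, adjusted p = 0.0315). The Il18 call was lost without ankle control 1 (adjusted p = 0.0859), control 2 (0.0816), MSU 1 (0.0509) or MSU 3 (0.102), over a range of 0.0120 to 0.102 for all alternatives. The count of ankle members called lower was then 1, Pycard.

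Marker transcripts of several cell types moved with these changes in the ankle. All 8 neutrophil markers were called higher, and their sum ran from 216 to 659 CPM in the controls and from 1923 to 3060 CPM with MSU. Of 10 monocyte and macrophage markers, 5 were called higher and none lower, while their sum overlapped between the groups (1599 to 1971 and 1480 to 2048 CPM). All 6 keratinocyte markers were called lower, and their sum fell from 11565 to 12894 CPM in the controls to 4232 to 6063 CPM with MSU. The lymphocyte sum overlapped between the groups, at 39.1 to 64.9 and 47.2 to 96.7 CPM, with 1 of 6 called higher. No neutrophil, macrophage, keratinocyte or lymphocyte marker was at 0 in any ankle library. Without ankle control 2, the library with the most neutrophil transcripts among the controls, the 5 rises kept their calls, with log2 fold changes of 5.29 for Nlrp3, 3.85 for Mefv, 2.30 for Casp4, 0.90 for Gsdmd and 1.03 for Nlrc4. The part of these cell types in the changes of the 10 genes was not tested.

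**Figure D2:**
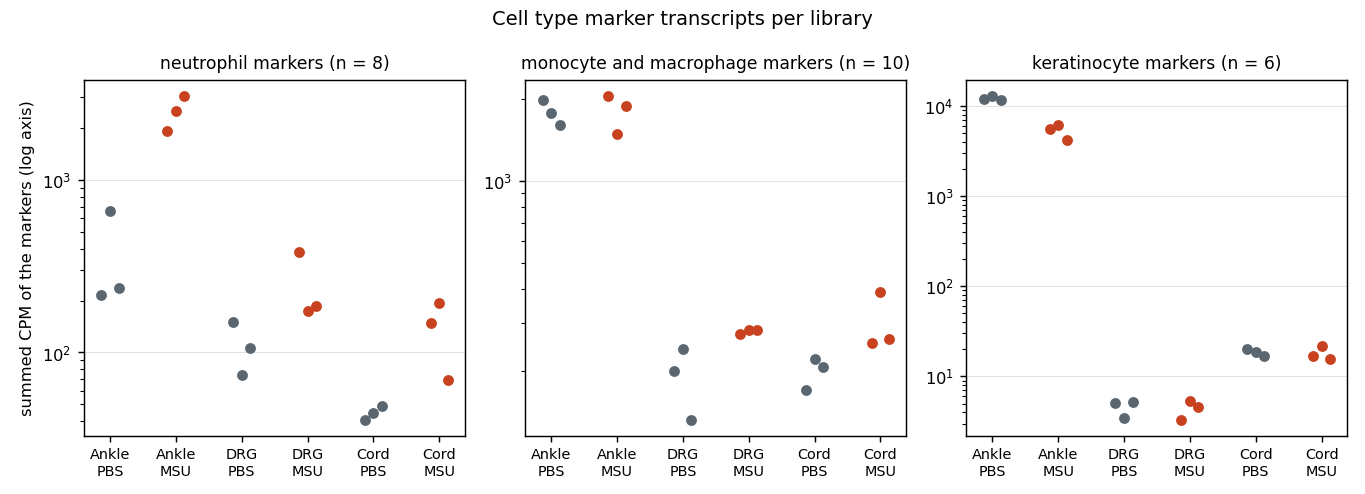
Summed CPM of 8 neutrophil, 10 monocyte and macrophage and 6 keratinocyte marker transcripts in every library, on log axes, for PBS controls (grey) and MSU (red). Neutrophil sums with MSU were above the controls in each tissue, keratinocyte sums in the MSU ankle were 4232 to 6063 CPM against at least 11565 CPM in the controls, and the macrophage sums overlapped in the ankle.

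In the DRG, far from the injected joint, the caspase-11 transcript Casp4 rose most among the 10 genes, 6.53-fold. Mefv rose 4.88-fold, Nlrp3 2.46-fold, Gsdmd 1.69-fold and Nek7 1.16-fold. None of the 10 genes was called lower by edgeR, DESeq2 or limma-voom, nor at an unadjusted edgeR p under 0.05. Of 17008 genes tested, 16.7% were called higher and 18.7% lower, against 5 and 0 of the 10 genes. The 5 include Mefv and Nlrp3, which needed the MSU libraries to pass the count filter, so their calls add little to the count. The median log2 fold change was 0.60 over the 10 genes and 0.02 over all genes tested.

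Casp4 was at 3.21, 2.92 and 1.71 CPM in the DRG controls and at 13.2, 18.2 and 20.8 CPM with MSU. The groups were well separated (log2 fold change 2.71, SE 0.25, adjusted p = 0.000133). Casp1 gave 10.2, 6.96 and 7.57 CPM against 8.87, 12.5 and 12.6 CPM, which overlapped because control 1 was above MSU 1. Its log2 fold change of 0.45 (SE 0.19) did not pass in edgeR (adjusted p = 0.0836), and it passed without control 1 (0.0375), without MSU 1 (0.0162) and with no count filter (0.0196), over a range of 0.0162 to 0.255. Gsdmd was at 4.47, 5.58 and 4.49 CPM in the controls and 10.2, 7.79 and 6.68 CPM with MSU, without overlap. Its log2 fold change was 0.76 (SE 0.19, adjusted p = 0.0117), and its adjusted p was 0.0542 without DRG control 1 and 0.000524 to 0.0542 over the alternatives.

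The sensors of the DRG were scarce. Nlrp3 had 28, 13 and 8 counts in the controls and 24, 32 and 44 with MSU, which is 0.782, 0.576 and 0.473 CPM against 1.63, 1.51 and 1.54 CPM. No MSU value approached the controls (log2 fold change 1.30, SE 0.30, adjusted p = 0.00735), but fitting all 18 libraries together gave an adjusted p of 0.120 (range 0.00302 to 0.120 for its alternatives). Mefv had 31 counts over the 3 controls and 125 over the MSU libraries, at 0.586, 0.177 and 0.355 CPM against 2.17, 1.70 and 1.99 CPM. These groups were apart in every library (log2 fold change 2.29, SE 0.38, adjusted p = 0.00141). Controls 2 and 3 held 4 and 6 counts, under the filter minimum of 10, so Mefv needed the MSU libraries to pass the filter. Nlrp3, with 8 counts in control 3, needed them too, so both calls are given as descriptions. Aim2, at 0.29 on the log2 scale (adjusted p = 0.450), and Nlrc4, with 0.39 (adjusted p = 0.346), did not pass, and their control means were 1.22 and 0.720 CPM.

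Pycard had 71 counts in the DRG controls and 111 with MSU, at 0.810, 1.28 and 0.769 CPM against 1.35, 1.51 and 2.06 CPM. The groups did not overlap, and the log2 fold change of 0.80 (SE 0.31) missed the threshold (adjusted p = 0.0689). It passed without DRG control 2 (0.0476), without MSU 1 (0.0490) and in the fit of all 18 libraries (0.0447), over a range of 0.0447 to 0.281. Nek7 was the most abundant of the 10 in this tissue, at 310, 295 and 294 CPM in the controls and 347, 334 and 365 CPM with MSU. Its small separation passed (log2 fold change 0.22, SE 0.07, adjusted p = 0.0426). The Nek7 call was lost without DRG control 1 (0.0747), control 2 (0.137), control 3 (0.0890), MSU 2 (0.0832) or MSU 3 (0.154), and in the fit of all 18 libraries (0.257), over a range of 0.0218 to 0.257. Il18 was at 3.84 ± 0.868 CPM in the controls and 4.50 ± 0.214 CPM with MSU (SD, n = 3 libraries), with overlap and an edgeR adjusted p of 0.442.

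Some neutrophil and macrophage markers were also called higher in the MSU ganglia. The neutrophil sum was 73.7 to 150 CPM in the controls and 174 to 380 CPM with MSU, with 4 of 8 markers called higher. S100a8 and S100a9, which made up most of that sum, did not pass (edgeR adjusted p = 0.130 and 0.122), and Ly6g had a log2 fold change of -1.01 (0.153). The macrophage sum was 133 to 242 and 275 to 283 CPM, with 5 of 10 called higher. The sum of 6 sensory neuron markers was lower, 5599 to 7160 CPM in the controls and 4902 to 5169 CPM with MSU, and 3 of them, Avil, Scn10a and Pou4f1, were called lower. The joint markers Acan and Col2a1 were also called lower, and the myelin gene Mbp was called higher. The skeletal muscle sum of 1270 to 11080 CPM with MSU exceeded that of the controls, although none of its 4 markers was called. Leaving out DRG MSU library 1, which held the most muscle transcript, gave 7 members called higher, the 5 above with Pycard and Casp1, and a Casp4 log2 fold change of 2.85. The part of these cells in the DRG results was not tested.

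In the spinal cord, Casp4 rose 3.61-fold, Nek7 rose 1.37-fold, and Mefv was counted in MSU libraries only. No member was called lower by edgeR, DESeq2 or limma-voom, and 1, Aim2, was lower at an unadjusted edgeR p under 0.05. The share of genes called was smaller here, 5.60% higher and 4.07% lower of 17507 tested, against 3 and 0 of the 10 genes. The 3 include Mefv, which entered the test through the MSU libraries alone, so its call adds nothing to the count. The median log2 fold change was 0.28 over the 10 genes, whatever the size of the Mefv value, and -0.01 over all genes tested. Without cord control 3 and cord MSU 3 together, Casp4 and Nek7 kept their calls, with log2 fold changes of 1.66 and 0.59.

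Casp4 was at 2.13, 2.56 and 1.25 CPM in the cord controls and 6.71, 8.02 and 6.92 CPM with MSU. All MSU libraries were above all controls (log2 fold change 1.85, SE 0.24, adjusted p = 0.000240). Mefv had 0 counts in each control, which allows up to 0.0628 CPM over the control group at a floor of 3 counts for all 3 libraries, and 19, 48 and 28 counts with MSU, or 0.938, 2.44 and 1.18 CPM. It passed the count filter through the MSU group alone, so no p is given. With the controls at that group floor, Mefv was at least 24.1-fold higher with MSU. Nek7 was at 73.4, 69.2 and 85.4 CPM in the controls and 102, 113 and 96.8 CPM with MSU, groups that did not overlap (log2 fold change 0.45, SE 0.09, adjusted p = 0.00698). Its adjusted p was 0.0527 without cord control 2 and 3.54e-06 to 0.0527 over the alternatives.

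Nlrp3 sat at the threshold in the cord. It had 16, 11 and 15 counts in the controls and 39, 49 and 35 with MSU, at 0.774, 0.805 and 1.10 CPM against 1.93, 2.49 and 1.47 CPM. The groups did not overlap, and the log2 fold change of 1.13 (SE 0.34) had an adjusted p of 0.0507. It passed without cord MSU 3 (0.0350), with no count filter (0.0286) and without control 3 and MSU 3 together (0.0435), over a range of 0.0286 to 0.280. Aim2 moved the other way, from 6.87, 5.56 and 6.92 CPM to 4.34, 5.38 and 4.78 CPM, without overlap and without passing (log2 fold change -0.42, adjusted p = 0.175). Casp1 (100 counts in the controls and 162 with MSU), Pycard (78 and 122), Nlrc4 (37 and 59), Gsdmd (219 and 326) and Il18 (698 and 999) gave log2 fold changes of 0.11 to 0.31 that did not pass. The sign of 4 of these turned on 1 library, Casp1 without cord control 1, Nlrc4 without control 3, and Gsdmd and Il18 without MSU 2.

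Leukocyte transcripts moved with these cord values too. The neutrophil sum was 40.9 to 48.8 CPM in the controls and 69.3 to 194 CPM with MSU, and 3 of the 7 markers tested were called higher. S100a8 and S100a9, which made up most of this cord sum, did not pass (edgeR adjusted p = 0.179 and 0.128). The macrophage sum was 170 to 221 and 253 to 390 CPM, with 5 of 10 called higher, namely Ccr2, Ly6c2, Fcgr1, C1qa and C1qb. The microglia sum fell from 144 to 149 CPM to 103 to 124 CPM, with 3 of 6 called lower. Tmem119 of that list had a log2 fold change of 0.68 (edgeR adjusted p = 0.104). These lists do not separate macrophages from microglia in the cord. The part of these cells in the cord results was not tested.

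**Figure D3:**
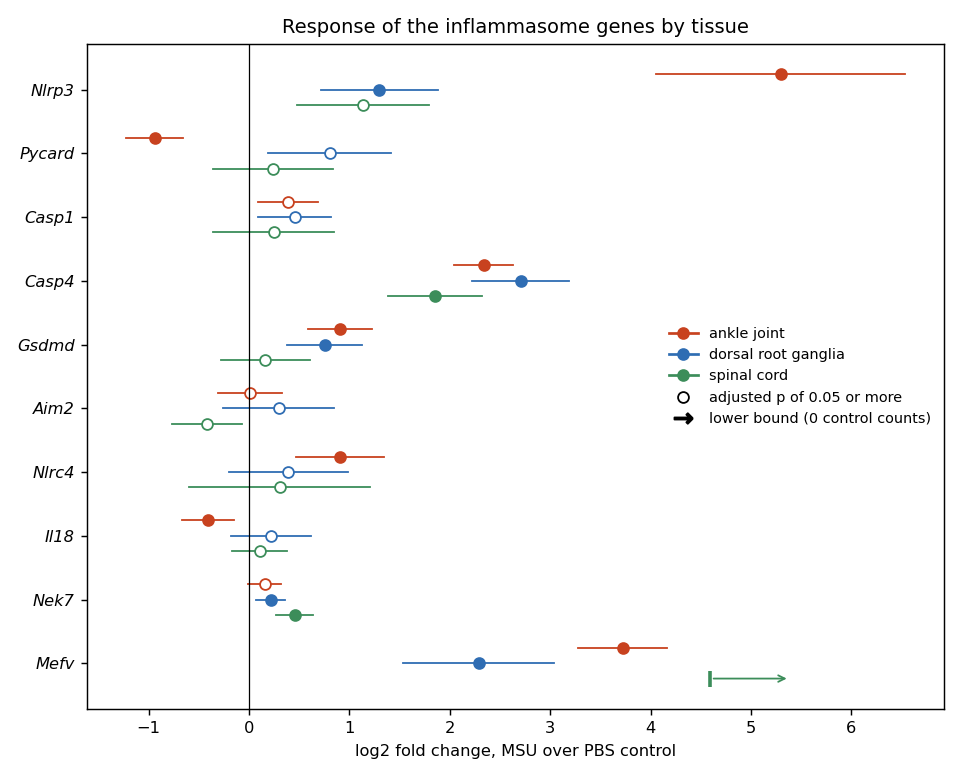
Log2 fold change of MSU over PBS for each gene in the ankle (red), DRG (blue) and spinal cord (green), with 95% intervals. Filled points passed an adjusted p of 0.05, and the arrow for Mefv in the cord starts at 24.1-fold, its lower bound when the controls together are given 3 counts. Casp4 lay at 1.85 to 2.71 in the 3 tissues, while Nlrp3 reached 5.30 in the ankle and Pycard fell to -0.94 there.

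Across the tissues, 1 of the 10 genes, Casp4, was called higher in all 3, against 2.45% of the 14767 genes tested in all 3. Mefv was called in the ankle and in the DRG, where it needed the MSU libraries to pass the filter, so its DRG call adds little. Its cord call is not counted because of the filter. Gsdmd was called in the ankle and DRG, and so was Nlrp3, which also needed the MSU libraries to pass the DRG filter. Nek7 was called in the DRG and cord, Nlrc4 in the ankle, where Pycard and Il18 were called lower, and Casp1 and Aim2 in none. The difference between 2 tissues in their response to MSU was tested as an interaction in edgeR over all 18 libraries and 20757 genes. The labels do not tell whether the same mice gave all 3 tissues, and libraries of different tissues were treated as independent in this test and in the control levels below. Some sample numbers in the column names recur in all 3 tissues, so a pairing of tissues by mouse may have been left out. Between ankle and DRG, 32.4% of genes differed, and 3 of the 10 did. The log2 response of Nlrp3 was 3.98 larger in the ankle (SE 0.68, adjusted p = 0.000497), with an adjusted p of 0.0587 by limma-voom and 9.12e-08 to 0.0587 over the alternatives. The Pycard response differed by -1.77 (SE 0.33, adjusted p = 0.000496), the ankle value being below that of the DRG. The Il18 response differed by -0.64 (adjusted p = 0.0435), a call lost in 16 of 21 alternatives, whose adjusted p ran from 0.0253 to 0.125.

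Between ankle and cord, 26.7% of genes differed in response, and 4 of the 10 did. Nlrp3 differed by 4.01 (SE 0.71, adjusted p = 0.000676), Pycard by -1.31 (SE 0.33, adjusted p = 0.00573), Nek7 by -0.42 (adjusted p = 0.0106) and Il18 by -0.64 (adjusted p = 0.0403). By limma-voom the Nlrp3 adjusted p was 0.0593 (1.31e-07 to 0.0593 over the alternatives). The Nek7 call was lost without ankle control 2 (0.0556), ankle control 3 (0.0626) or cord MSU 2 (0.0896), over a range of 0.00231 to 0.0896, and the Il18 call in 10 of 21 alternatives, whose adjusted p ran from 0.0215 to 0.203. Without ankle control 2 or without ankle control 3, 2 of the 10 differed. Between DRG and cord, 13.6% of genes differed and 1 of the 10, Mefv, did, whose cord controls held no counts. Its fitted difference depends on how 0 counts are smoothed, and the call was lost without DRG control 1 or any 1 cord control, with adjusted p values of 0.0521 to 0.0782, and by limma-voom (0.112), over a range of 0.0131 to 0.112.

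The Casp4 response was not shown to differ between tissues. The differences were -0.39 for ankle minus DRG (SE 0.30, adjusted p = 0.356), 0.35 for ankle minus cord (SE 0.33, adjusted p = 0.485) and 0.74 for DRG minus cord (SE 0.35, adjusted p = 0.186). The Gsdmd response differed by 0.14 (SE 0.28, adjusted p = 0.771) between ankle and DRG, where it was called in both. It differed by 0.62 between ankle and cord (SE 0.29, adjusted p = 0.129), a difference that passed without ankle control 1 (0.0406) or without cord MSU 2 (0.0324), over a range of 0.0324 to 0.357. For Mefv the ankle response exceeded that of the DRG by 1.43 (SE 0.53, adjusted p = 0.0511), and this passed without ankle control 2, ankle MSU 1, DRG control 2, cord MSU 1 or cord MSU 2 (adjusted p of 0.0158 to 0.0422) and with RLE scaling (0.0468), over a range of 0.0158 to 0.455.

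The control libraries show where these transcripts stood without crystals. Ankle controls exceeded DRG controls for 9 of the 10 genes, against 40.3% of all genes higher and 38.4% lower in the ankle. Pycard was 21.6-fold higher in the ankle (23.2 ± 2.11 against 1.07 ± 0.311 CPM, SD, n = 3 libraries, scaled over all 18), Mefv 15.2-fold and Aim2 13.8-fold, and Casp1 2.72-fold. Nek7 was the exception, 2.79-fold higher in the DRG. Ankle controls exceeded cord controls for all 10, against 40.0% of genes higher and 38.5% lower, from 1.58-fold for Nek7 and 1.61-fold for Il18 to 14.2-fold for Pycard, and Mefv was absent from cord control counts. For Nlrp3 these ankle differences, 5.49-fold over the DRG and 4.46-fold over the cord, did not pass by limma-voom (adjusted p of 0.0601 and 0.105).

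Between the 2 nervous tissues, 29.9% of genes were higher and 26.7% lower in DRG controls than in cord controls. Casp1 was 4.31-fold and Nek7 4.41-fold higher in the DRG, and Mefv was also called higher there, while Aim2 was 4.73-fold and Il18 3.37-fold higher in the cord. Nlrp3, Pycard, Casp4, Gsdmd and Nlrc4 did not pass between these controls, with log2 differences of -0.61 to 0.59 for DRG minus cord. Pycard passed with RLE scaling (0.0433) and in a fit of the control libraries alone (0.0405), over a range of 0.0405 to 0.138.

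**Figure D4:**
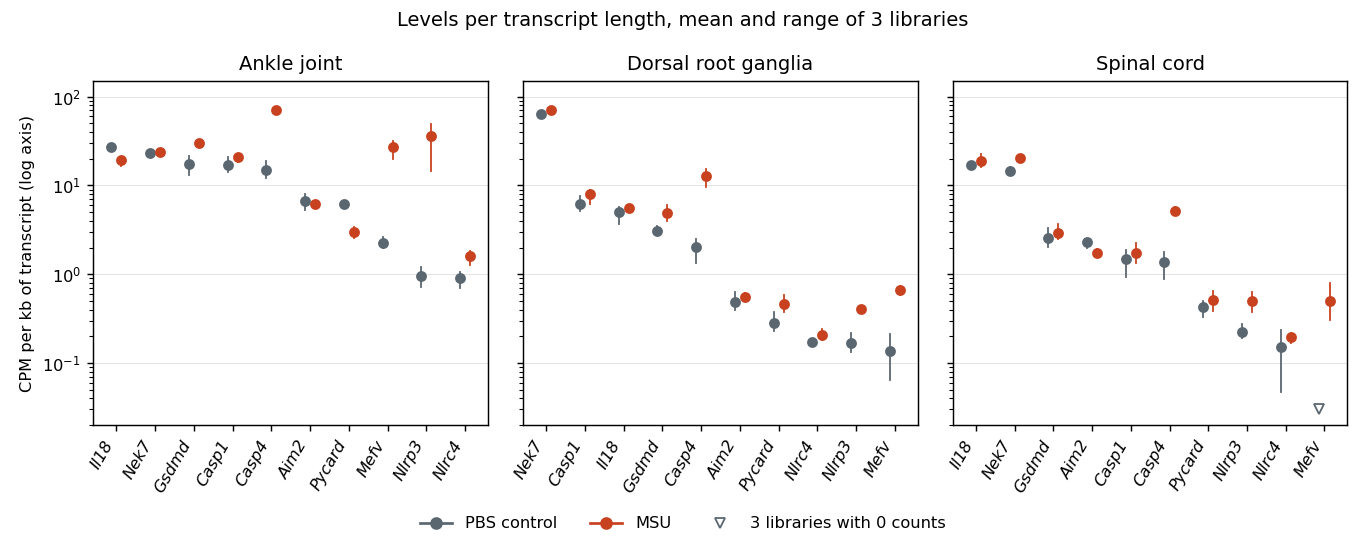
CPM per kb of annotated transcript, on a log axis, for each gene in PBS controls (grey) and MSU (red), ordered by control level within each tissue. Points are means and lines the range of 3 libraries. Il18 had the highest control level in the ankle (27.4) and cord (17.1) and Nek7 in the DRG (63.9), and Casp4 led in the MSU ankle at 71.2.

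Divided by transcript length, the order of the 10 genes could be compared within a tissue. In ankle controls, Il18 led at 27.4 ± 2.36 CPM per kb, then Nek7 at 22.9 ± 0.257, Gsdmd at 17.3 ± 4.31, Casp1 at 16.9 ± 3.36 and Casp4 at 15.1 ± 3.38 (SD, n = 3 libraries), and the last 3 of these did not differ beyond their spread. Nlrp3, at 0.960 ± 0.240, and Nlrc4, at 0.907 ± 0.186, were the lowest and likewise did not differ beyond it. With MSU the ankle order was Casp4 at 71.2 ± 2.87, then Nlrp3 at 35.6 ± 18.5, Gsdmd at 30.2 ± 1.86 and Mefv at 27.4 ± 6.66, of which Casp4 stood clear. Nlrp3 thus went from rank 9 to rank 2 of the 10 levels. Its MSU libraries ran from 14.7 to 49.6, which takes in the levels of Gsdmd and Mefv, so rank 2 was not set apart from them. In the DRG, Nek7 stood alone at 63.9 ± 2.06 in the controls, followed by Casp1 at 6.19 ± 1.34 and Il18 at 5.0 ± 1.11, while Nlrc4, Nlrp3 and Mefv were at 0.171, 0.170 and 0.135. Casp4 went from rank 5 to rank 2 there with MSU, at 12.8 ± 2.95. In cord controls Il18 at 17.1 ± 0.891 and Nek7 at 14.5 ± 1.63 were far above Gsdmd at 2.58 ± 0.639, and Casp4 reached 5.12 ± 0.489 with MSU, behind only Nek7 and Il18.

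These levels depend on the annotated length. For Pycard the length used was 3800 bases, and its place in the order is uncertain because a much shorter transcript is annotated too. With all annotated exons of a gene in place of its principal transcript, Casp4 had 3710 bases instead of 1435, and its MSU ankle level of 27.5 CPM per kb ranked below that of Nlrp3, at 35.3. With MSU it then ranked 3 in the DRG, at 4.96 below Casp1 at 8.00, and 4 in the cord, at 1.98 below Gsdmd at 2.20. In the annotation, 485 exon bases of Pycard overlap Gm45205 on the opposite strand, which held 252 counts over the 18 libraries against 3054 for Pycard, and the strand setting of the counts is not given in the sources used here. Nek7 overlaps Gm28501, which held 0 counts, and no other member shared exon bases with another gene.

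**Figure D5:**
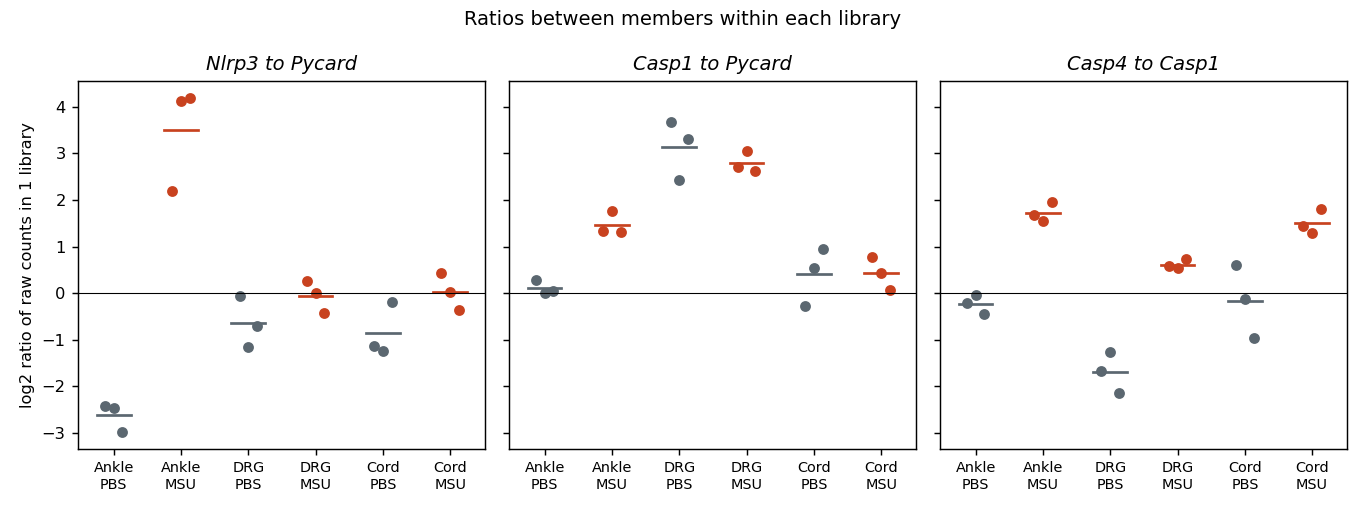
Log2 ratio of raw counts between pairs of the genes within each library, for PBS controls (grey) and MSU (red) by tissue, where points are libraries and bars are means of 3. Nlrp3 to Pycard rose from a mean of -2.61 to 3.50 in the ankle, and Casp4 to Casp1 was above every control in each tissue.

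Ratios of counts within a library do not depend on how libraries are scaled, and describe the balance between sensor, adaptor and protease transcripts. In the ankle controls, 0.127 to 0.188 Nlrp3 reads were counted for each Pycard read. With MSU there were 4.58, 17.4 and 18.2, so that sensor reads outnumbered adaptor reads in each MSU library and in none of the controls. In the DRG this ratio was 0.448 to 0.966 in the controls and 0.746 to 1.2 with MSU, and in the cord 0.423 to 0.882 and 0.778 to 1.34, with overlap in both. The Casp4 to Casp1 ratio was 0.739 to 0.967 in ankle controls and 2.94 to 3.86 with MSU, 0.227 to 0.420 and 1.46 to 1.65 in the DRG, and 0.515 to 1.52 and 2.43 to 3.51 in the cord. Its groups did not overlap in any tissue. The Casp1 to Pycard ratio separated in the ankle, at 1.0 to 1.21 and 2.50 to 3.37, and overlapped in the DRG and cord. A count ratio also carries the lengths of the 2 transcripts, and which annotated transcript of a gene was in use in each library was not measured.

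The other genes of the pathway were read in 4 lists. These lists were chosen with earlier results of these data known, so their shares of called genes describe the lists and test nothing. In the ankle all 11 genes of the interleukin-1 and interleukin-18 side were called higher, against 21.6% of all genes, with a median log2 fold change of 2.30 against -0.02 for all genes tested. Il1rn, the interleukin-1 receptor antagonist, went from 41.3 ± 4.17 to 797 ± 154 CPM, Il18rap, a subunit of the interleukin-18 receptor, from 19.0 ± 2.16 to 151 ± 5.31, Il1r1 from 128 ± 21.0 to 452 ± 41.3 and Il18bp, a soluble decoy for interleukin-18, from 7.07 ± 0.587 to 22.7 ± 1.90 (SD, n = 3 libraries). So the receptor subunit and the decoy rose in the same libraries in which Il18 was lower. In the DRG 9 of 10 tested genes of this side were called higher and 0 lower, against 16.7% and 18.7% of all genes (median 1.73 against 0.02). Il1rn, at 0.414 CPM in DRG control 3, needed the MSU libraries to pass the count filter, so its call adds little to the 9. Il1b, the interleukin-1β precursor, went from 0.858 ± 0.208 to 4.54 ± 0.683 CPM, Il1rn from 0.618 ± 0.229 to 10.2 ± 2.77, Il1r2, a decoy receptor, from 1.14 ± 0.504 to 8.77 ± 1.71 and Il1r1 from 12.6 ± 0.996 to 40.3 ± 3.03. In the cord 5 of 9 were called higher and 1 lower, against 5.60% and 4.07% of all genes (median 1.68 against -0.01). The fall was Il33, an alarmin gene, from 134 ± 2.43 to 93.0 ± 13.4 CPM (edgeR adjusted p = 0.00304), which did not pass when all 18 libraries were fitted (0.386, with a range of 7.98e-08 to 0.386). Il1rn went from 9 to 591 counts, Il1r2 from 21 to 418 and Il1r1 from 326 to 1405 there. Il1rn and Il1r2 needed the MSU libraries to pass the count filter, so their calls add little to the 5.

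Of 14 other sensor genes tested in the ankle, 7 were called higher and 1 lower, against 21.6% and 21.7% of all genes, with a median log2 fold change of 0.51. With upper quartile scaling 2 were lower. Nod2, a sensor of bacterial cell wall fragments, gave 2.42 on the log2 scale, Nlrp12 of 1.95 and Naip2, a partner of NLRC4, of 1.25, and counts of Naip genes are uncertain because they are near copies of one another. The fall was Nlrp10, at -1.61, which is expressed in the epidermis. In the DRG 1 of 11 sensors, Nlrc5, an activator of MHC class I genes, was called higher (0.82), a smaller share than the 16.7% of all genes there. In the cord 2 of 9, Nlrc5 (2.20) and Nod2 (1.48), were called higher, against 5.60% of all genes. The medians were 0.25 and 0.20. The DRG count of rises was 2 without DRG control 3, without MSU 3 and with no count filter. None was called lower by edgeR in the DRG, where 2 were lower at an unadjusted p under 0.05, 0 by DESeq2 and 1 by limma-voom, and 1 without DRG MSU 1, with no count filter and in the fit of all 18 libraries. The Nod2 call in the cord was lost without cord control 1 (edgeR adjusted p = 0.0658) and without control 3 and MSU 3 together (0.0752), over a range of 0.00253 to 0.0752.

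Of the 22 regulator genes tested in each tissue, the ankle had 14 called higher and 2 lower, the DRG 12 and 1, and the cord 8 and 2, with median log2 fold changes of 0.48, 0.53 and 0.18. The shares of all genes were 21.6% and 21.7%, 16.7% and 18.7%, and 5.60% and 4.07%. Tnfaip3, the A20 deubiquitinase gene that restrains NF-kB signalling, had values of 4.34 in the ankle and 1.11 in the cord. Syk, a kinase gene of crystal and lectin signalling, had 1.82 and 1.28, the chloride channel gene Clic4 had 1.59 in the ankle against 1.29 in the DRG, and Pstpip1, whose product binds pyrin, had 1.25 in the ankle. In the DRG the interferon-induced genes Gbp5 (1.36), Irgm1 (1.20) and Zbp1 (1.76) were among those called. Txnip, whose product binds thioredoxin, had 1.02 in the cord, and Ddx3x, an RNA helicase gene, was lower there (-0.40). The cord count of higher regulators was 5 without cord control 1, without MSU 2, without control 3 and MSU 3 together and in the fit of all 18 libraries, and 4 without control 2. The count of lower ones was 1 in that fit and without any of controls 1 to 3, MSU 1 or MSU 2. The 1 lower regulator of the DRG, the membrane channel gene Panx1 (-0.28), named after its value was seen, was lost without DRG control 2, control 3, MSU 2 or MSU 3, with RLE or upper quartile scaling and with a mean count of at least 10, while 2 were lower with no count filter and in the fit of all 18 libraries.

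Of 15 other death effector genes tested in the ankle, 7 were called higher and 0 lower, against 21.6% and 21.7% of all genes (median 0.47). Ripk3 and Mlkl, the kinase and the executioner of necroptosis, had log2 fold changes of 1.88 and 1.77, and Ripk1 and Casp8 of 0.83 and 0.81. In the DRG 5 of 10 were called higher and 0 lower, against 16.7% and 18.7% (median 0.48), among them Ripk3 (1.61), Casp12 (1.05), Casp8 (0.95) and Ripk1 (0.93). Ripk3, at 0.355 CPM in DRG control 3, needed the MSU libraries to pass the count filter, so its call adds little to the 5. In the cord 0 of 10 passed in either direction by edgeR, DESeq2 or limma-voom (median 0.20), and 3 were higher at an unadjusted edgeR p under 0.05. In the cord 3 passed as higher in the fit of all 18 libraries, 2 with no count filter and 1 without control 3. In the ankle 1 passed as lower without MSU 2, with no count filter and in the fit of all 18 libraries.

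Likeness to Nlrp3 and to Pycard was measured as Pearson's r over the 18 libraries, on log2 CPM with the mean of each tissue removed, among 15225 genes with a mean of at least 1 CPM. The libraries share tissue and treatment, so r is a description. Nearest to Nlrp3 were the stress-induced gene Gadd45b (r = 0.99), the chemokine gene Cxcl3 (0.98), Tnfaip3 (0.98), the opioid growth factor receptor gene Ogfr (0.98) and the NF-kB subunit gene Nfkb1 (0.98). Their ankle log2 fold changes were 2.65, 10.16, 4.34, 1.08 and 1.26. Nearest to Pycard were Ndufv3 (0.91), Ufd1 (0.90), Cox7a2l (0.89), Mgst3 (0.88) and P3h3 (0.88), of which Ndufv3 and Cox7a2l encode parts of the mitochondrial respiratory chain. Their ankle log2 fold changes were -0.58, -0.13, -0.45, -0.93 and -0.46, and those in the DRG 0.56, 0.21, 0.41, 0.53 and 0.49. Among the 10 genes, the highest such r were 0.89 for Mefv with Casp4, 0.80 for Mefv with Nlrp3 and 0.79 for Gsdmd with Casp4, and that of Pycard with Nlrp3 was -0.54.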

How the data were processed

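The 18 libraries, 3 of each treatment in each of 3 tissues, were made from TRIzol RNA with a VAHTS V6 kit, per the labels. The authors deposited 1 table per tissue of raw read counts per Ensembl gene, not normalized. HISAT2, HTSeq 0.11.3, DESeq2 and the mm39 build appear in the submitters' processing notes, without role or order. The annotation release and strand setting are not given in the sources used here. An older annotation (GENCODE M21, GRCm38) supplied symbols, for 94.1% of the 55359 identifiers, and lengths. Coordinates of promoters are those of RefSeq in GRCm38.p6, not of the build of the counts.

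Genes were kept by filterByExpr (minimum count 10, minimum total 15), scaled by TMM and tested with edgeR 4.0.16 (R 4.3.3), by the robust quasi-likelihood F test with Benjamini-Hochberg adjustment over all genes. Each adjusted p is from it unless another tool is named, and each SE is the log2 fold change over the square root of F. Each tissue was fitted alone, and a gene scarce in the controls could pass the filter through its 3 MSU libraries. Differences between tissues and levels per length used all 18 libraries. CPM use the effective library size, and floors of 3 counts cover counting error only. No library was a copy of another: chi-square over degrees of freedom was at least 5.69 for replicates of any group. The test was run on simulated counts as well.

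The text names the 10 genes, up to 4 called genes with the smallest p of each list and tissue (lists: other sensors, interleukin-1 and interleukin-18 side, regulators, other death effectors), and the 5 genes most like Nlrp3 and Pycard. Genes, lists and tests were chosen with earlier results of these data known. The alternatives were RLE and upper quartile scaling, no count filter, a mean count of at least 10, DESeq2 1.42.0, limma-voom (limma 3.58.1), a fit of all 18 libraries, leaving out each library, a replicate block and a log2 fold change of at least 1. Leaving out cord control 3 with cord MSU 3, which held sensory neuron transcript, and lengths over all exons, were chosen after the data were seen.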

Additional observations from a re-analysis of the deposited data

Results flagged for a closer look

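The response to MSU differed between tissues for 5 of the 10 genes, by an edgeR test of the difference itself over all 18 libraries. The 5 include Mefv, whose only difference called rests on cord controls with 0 counts, so it adds nothing to the count. By pair, 3 of the 10 differed between ankle and DRG, 4 between ankle and cord and 1 between DRG and cord, against 32.4%, 26.7% and 13.6% of all genes. The Nlrp3 differences did not pass by limma-voom (adjusted p of 0.0587 and 0.0593). The Il18 calls were lost in 16 and 10 of 21 alternatives, the Nek7 call in 3 of 21 and the Mefv call in 5 of 21. For Nlrp3 the ankle response exceeded that of the DRG by 3.98 and that of the cord by 4.01 on the log2 scale. For Pycard it was below that of the DRG by a difference of -1.77 and below that of the cord by -1.31, and for Il18 by -0.64 against each. For Nek7 the ankle response was below that of the cord, at -0.42. For Mefv the fitted DRG response was below that of the cord, at -5.84, but the cord controls held 0 counts, so this value depends on the prior count and is no estimate of size. No test for a single outlying library was applied, since it needs at least 4 in a group and these had 3.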

How the results depend on the processing

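With a log2 fold change of at least 1 required, the ankle had 1504 genes called higher and 1808 lower, the DRG 827 and 147, and the cord 402 and 136, and of the 10 genes 3 were higher and 0 lower in the ankle and 3 higher in the DRG. The fit of all 18 libraries called 365 genes lower in the cord, where leaving out 1 library gave 359 to 724 (359 to 444 without control 1, 2, 3 or MSU 1). Leaving out 1 library gave 1 to 2 ankle members lower, and 2 to 4 members differing in response between ankle and DRG, 2 to 5 between ankle and cord and 0 to 2 between DRG and cord. The last was 0 without DRG control 1, cord control 1 or cord control 2 and 2 without cord MSU 3. By limma-voom, 1 member differed between ankle and DRG. Fewer genes met the added bound of 1 by its construction; for the other settings the cause was not tested.

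Signs turned for values near 0. Ankle Aim2 was -0.094 with upper quartile scaling, -0.025 with no count filter, -0.096 in the fit of all 18 libraries and -0.14 to 0.17 over the libraries left out. In the cord the latter range was -0.0094 to 0.45 for Casp1, -0.061 to 0.85 for Nlrc4, -0.020 to 0.36 for Gsdmd and -0.055 to 0.22 for Il18, and Nlrc4 was -0.15 without control 3 and MSU 3 together. The Nek7 difference between ankle and DRG ran from -0.11 to 0.0085.

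The replicate numbers did not pair the libraries: not every same-numbered pair of control and MSU deviated together, with correlations from -0.06 to 0.25. With the replicate block, 5 ankle members were higher and 2 lower, 4 were higher in the DRG and 3 in the cord. The block took 1 call from the 10 genes, DRG Nek7 (adjusted p = 0.0799, over a range of 0.0218 to 0.257 for its alternatives), and with it no DRG regulator was lower, 2 other DRG sensors were higher and 1 ankle death effector was lower. Of the response differences, 4 between ankle and DRG, 5 between ankle and cord and 1 between DRG and cord passed with it, the pair added being those of Mefv (0.0276 and 0.0292).

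Depth limits Nlrp3, Pycard, Nlrc4 and Mefv in the DRG and cord, which had 31 to 125 counts in a group of 3 libraries where any were found.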
